A study of Mus musculus with 9 samples.

Results

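The SLC25 genes encode the mitochondrial carrier family, and their expression was followed here through fat-cell differentiation of 3T3-L1 cells and after depletion of PPAR gamma. The members were all genes of the array annotation whose symbol starts with Slc25a and a number, which gave 44 genes among 18193 annotated ones. They were represented by 93 probe sets that carry a single gene symbol, and each gene was read from the probe set with its highest average signal on the 9 arrays, so the choice used no difference between groups. A further probe set, shared by Slc25a37 and Gm16867, was left out. Of the 44 genes, 23 had several probe sets.

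Carriers of this family sit as a rule in the inner mitochondrial membrane and exchange metabolites, nucleotides, phosphate, amino acids and cofactors between the matrix and the cytosol. In fat cells they supply pathways on both sides of that membrane: citrate leaves the matrix through the citrate carrier to become fatty acid, malate and aspartate carriers move reducing power, the carnitine carrier brings fatty acids in for oxidation, and ADP/ATP carriers link respiration to the rest of the cell. The family name covers exceptions, since the product of Slc25a17 resides in peroxisomes and that of Slc25a46 in the outer mitochondrial membrane.

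Total RNA was hybridised to 9 single-colour oligonucleotide arrays, 3 for each of 3 groups of the mouse line 3T3-L1, a fibroblast-like line that becomes fat-laden in culture. The PPAR gamma siRNA adipocytes and the control siRNA adipocytes were both detached and electroporated 14 days after induction, with siRNA against PPAR gamma or with a non-targeting oligonucleotide, at 2 or 3 nmol. Induction of both used dexamethasone at 1 µM, insulin at 10 µg/ml and the phosphodiesterase inhibitor IBMX at 0.5 mM. The preadipocytes were undifferentiated cells of the same line, for which no electroporation is given. All cells came from 1 cultured line, and the series calls its replicates technical, so p-values here speak for the spread among these samples alone, and having 3 arrays per group limits the precision. Differentiation below means control siRNA adipocytes minus preadipocytes and therefore also holds the electroporation and the control siRNA, which cannot be told apart from it. The knockdown comparison is PPAR gamma siRNA minus control siRNA adipocytes. It shares the 3 control siRNA arrays with the differentiation comparison, so opposite signs in the 2 comparisons are not independent observations.

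Values are deposited log2 signals, levels are means ± SD of 3 arrays, and changes are log2 differences ± SE. Calls were made in limma where the adjusted p lay under 0.05, with adjustment over all 45037 probe sets tested. The target of the siRNA, Pparg, stood at 9.59 ± 0.05 in PPAR gamma siRNA adipocytes, 12.79 ± 0.12 in control siRNA adipocytes and 8.22 ± 0.12 in preadipocytes, a knockdown change of -3.20 ± 0.10 (adjusted p = 1.27e-09). All 5 adipocyte markers measured fell in knockdown and rose in differentiation, and all 5 fibroblast markers did the reverse. The summed level of the fibroblast markers, on the log2 scale, was 14.67 to 15.06 in PPAR gamma siRNA adipocytes, 13.05 to 13.45 in control siRNA adipocytes and 15.64 to 15.77 in preadipocytes. That of the adipocyte markers was 14.77 to 14.83 in PPAR gamma siRNA adipocytes, 16.21 to 16.32 in control siRNA adipocytes and 12.39 to 12.49 in preadipocytes. Macrophage markers summed to 7.33 to 7.91 with PPAR gamma siRNA, 7.07 to 7.13 with control siRNA and 6.63 to 6.71 in preadipocytes, with 1 of 4 called higher in knockdown, Cd68, and 2 of 4 in differentiation, Cd68 and Adgre1. Cd68 changed by 1.20 ± 0.22 in knockdown and 1.35 ± 0.22 in differentiation and Adgre1 by 0.43 ± 0.10 in differentiation, and the pan-leukocyte gene Ptprc was at most 3.54 in PPAR gamma siRNA adipocytes. Endothelial markers summed to 6.04 to 6.40 with PPAR gamma siRNA, 6.04 to 6.30 with control siRNA and 5.67 to 5.95 in preadipocytes, with 1 of 3 called in differentiation. Brown adipocyte markers summed to 4.80 to 5.20 with PPAR gamma siRNA, 9.76 to 10.21 with control siRNA and 4.83 to 4.94 in preadipocytes, and 1 of 2 was called, Cidea, a lipid droplet protein (-5.84 ± 0.14 in knockdown and 6.09 ± 0.14 in differentiation). The Actb 3' minus 5' difference, a sign of RNA integrity, was 0.56, 0.54 and 1.25 in PPAR gamma siRNA arrays, 1.30, 0.92 and 0.91 in control siRNA arrays and 0.23, 0.31 and 0.36 in preadipocyte arrays. With the Actb difference as a covariate, 11 carriers were called higher and 15 lower in knockdown, and 17 higher and 7 lower in differentiation, and the single calls that ended are given with the carriers below. The Actb difference of preadipocytes did not overlap that of either adipocyte group. In comparisons against preadipocytes the covariate therefore cannot be told apart from the groups, and a call ended or gained with it does not show an effect of RNA integrity. The part of the marker differences in the carrier changes was not tested. In these bulk samples, fewer cells of a type and less RNA per cell cannot be told apart.

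In the knockdown comparison, which asked what mature adipocytes lose when the receptor is depleted, 10 of the 44 carriers rose and 17 fell, while 19.9% of all genes rose and 16.1% fell. At least 2-fold changes were seen for 2 carriers that rose and 8 that fell, beside 5.68% and 4.61% of all genes. The median change of the carriers was -0.10, against -0.01 for all genes, and the changes ran from -3.44 for Slc25a34 to 1.66 for Slc25a24. Arrays of the groups did not overlap for 11 carriers that were higher and 20 that were lower with PPAR gamma siRNA, beside 23.4% and 21% of all genes. The share of carriers that rose, 22.7%, was thus near that of all genes, and the share that fell, 38.6%, was above it. All genes include dim ones, which are called less often. Without probe sets of below-median average signal, 31.5% of 11595 genes rose and 24.4% fell. Of the 38 carriers that reached the array median in some group, 10 rose and 17 fell. Beside those brighter genes, carriers rose less often and fell more often.

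In differentiation 22 of the 44 carriers rose and 9 fell, beside 27.1% and 24.7% of all genes. Without the dim probe sets these shares were 33.3% and 37.1% of 11595 genes. All of the called carriers were among the 38 that reached the array median in some group. At least 2-fold changes were seen for 12 carriers that rose and 4 that fell, beside 8.83% and 10.6% of all genes. The median change was 0.30 (0.09 over all genes), and the range was -3.46 for Slc25a24 to 4.49 for Slc25a34. Arrays did not overlap for 29 carriers that were higher and 10 that were lower, beside 34% and 27.5% of all genes. The family also spread more widely than genes at large, with a median absolute change of 0.62 against 0.31 in differentiation and 0.38 against 0.20 in knockdown, as a description with no test. Genes at large include dim ones, whose changes can be understated, and the spread was not compared with genes of like signal. Each comparison left carriers uncalled, 17 in knockdown and 13 in differentiation, and the 6 whose signal lay below the array median of 4.85 in all groups were among them in both.

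**Figure D1:**
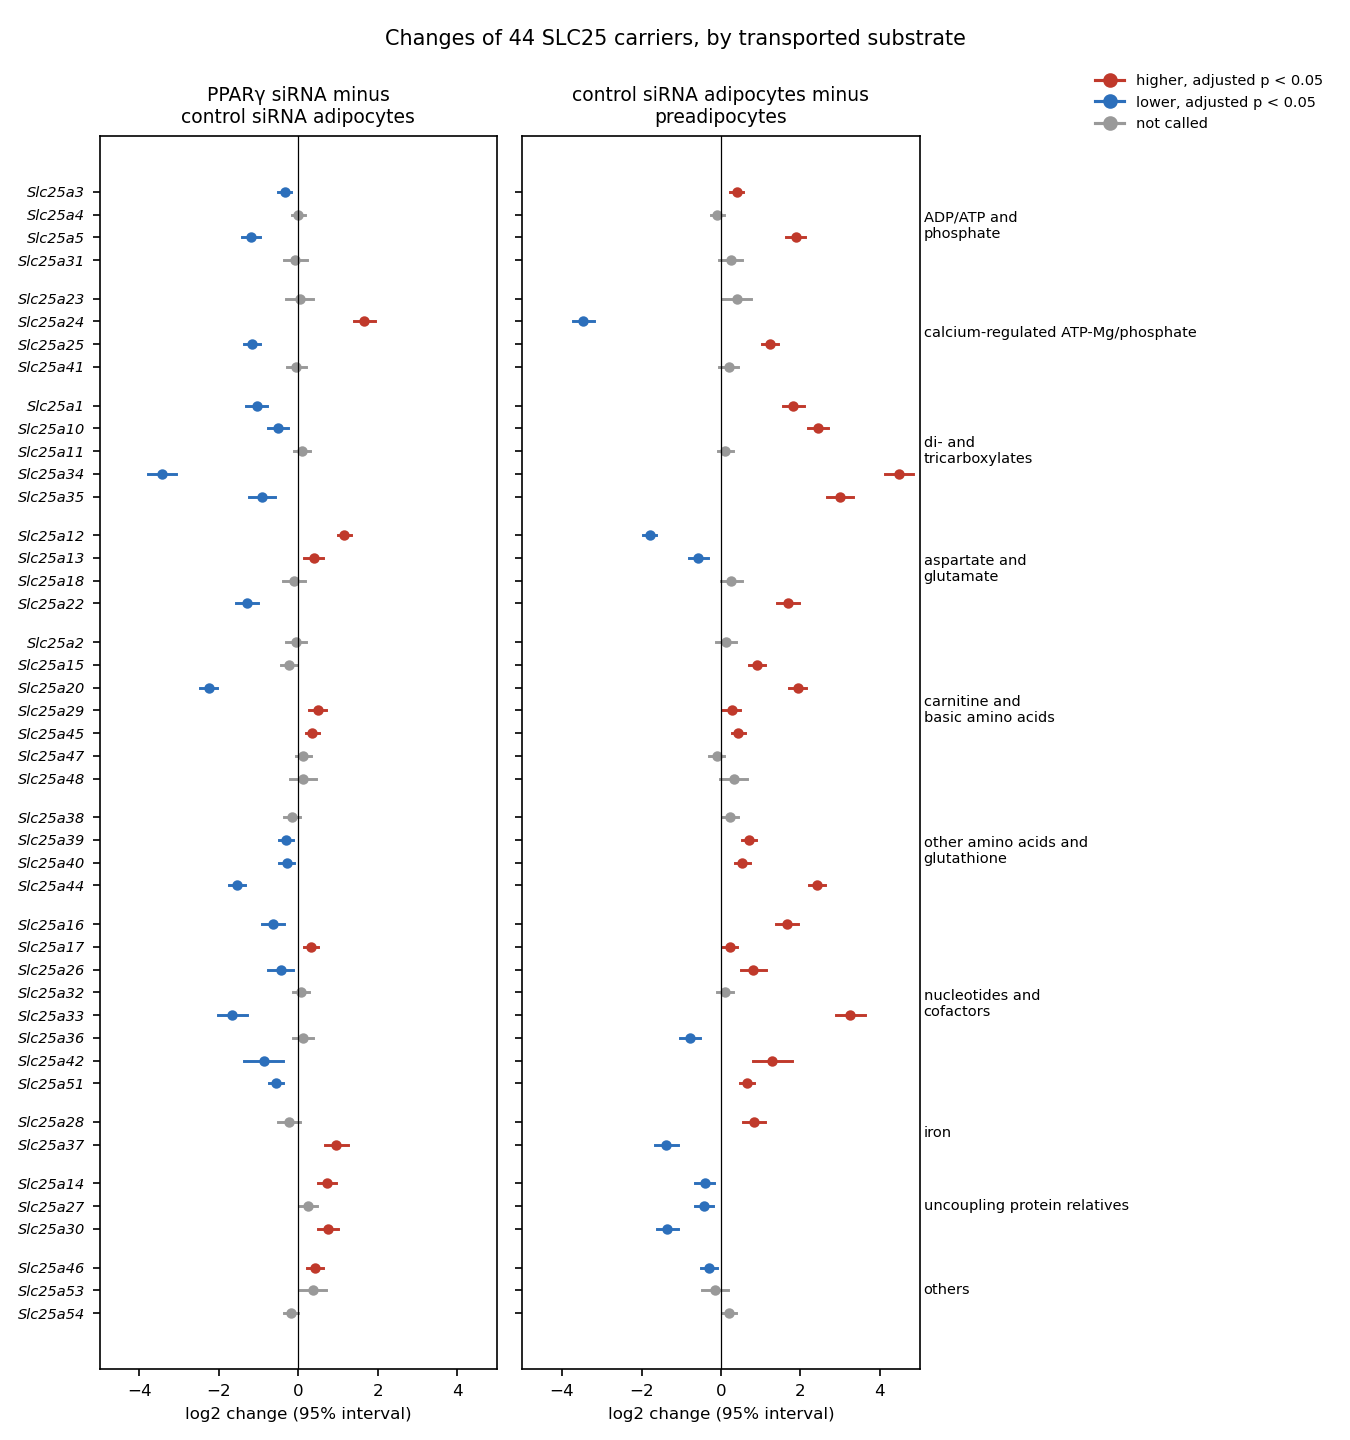
Log2 change (x axis) with its 95% interval of each of the 44 carriers, grouped by the substrate they carry, for PPAR gamma siRNA minus control siRNA adipocytes on the left and control siRNA adipocytes minus preadipocytes on the right, with n = 3 arrays a group. Red points were called higher, blue points lower and grey points not called; Slc25a34 lies farthest from 0 in both panels, at -3.44 and 4.49, and Slc25a24 lies on the opposite side of 0 from it in each.

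Promoter windows from RefSeq (build GRCm38.p6) covered 34 of the 44 members with 43 annotated starts. Each window holds the 250 bases before a start, given on the strand of the gene. They are shown for the carrier of largest change in both comparisons (Slc25a34), for the largest fall in differentiation (Slc25a24), for the carnitine carrier Slc25a20, and for Slc25a39 and Slc25a45, which hold the half-site AGGTCA that PPAR gamma and other nuclear receptors recognise. Capitals mark AGGTCA or CCAAT on either strand, so TGACCT and ATTGG are the same motifs read from the other strand.
Slc25a34 (chr4:141623835-141624084, minus strand): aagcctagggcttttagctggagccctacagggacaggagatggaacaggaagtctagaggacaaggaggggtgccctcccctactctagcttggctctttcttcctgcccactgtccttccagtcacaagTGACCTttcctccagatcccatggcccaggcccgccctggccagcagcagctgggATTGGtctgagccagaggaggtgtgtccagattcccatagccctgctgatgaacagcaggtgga
Slc25a24 (chr3:109122899-109123148, plus strand): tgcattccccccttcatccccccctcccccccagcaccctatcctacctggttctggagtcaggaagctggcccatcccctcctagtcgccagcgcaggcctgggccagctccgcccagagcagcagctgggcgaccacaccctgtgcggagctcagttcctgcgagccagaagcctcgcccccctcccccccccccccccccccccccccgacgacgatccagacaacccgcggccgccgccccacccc
Slc25a20 (chr9:108661886-108662135, plus strand): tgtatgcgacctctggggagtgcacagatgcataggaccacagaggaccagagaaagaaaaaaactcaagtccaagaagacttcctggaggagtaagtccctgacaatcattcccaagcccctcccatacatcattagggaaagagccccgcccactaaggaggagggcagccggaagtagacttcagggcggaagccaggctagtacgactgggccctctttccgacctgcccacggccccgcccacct
Slc25a39 (chr11:102407518-102407767, minus strand): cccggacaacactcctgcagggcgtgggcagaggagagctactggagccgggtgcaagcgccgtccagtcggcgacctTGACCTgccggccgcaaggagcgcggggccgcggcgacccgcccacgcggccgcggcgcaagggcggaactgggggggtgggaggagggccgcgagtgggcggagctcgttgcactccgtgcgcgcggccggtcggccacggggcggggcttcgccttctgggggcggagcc
Slc25a45 (chr19:5877572-5877821, plus strand): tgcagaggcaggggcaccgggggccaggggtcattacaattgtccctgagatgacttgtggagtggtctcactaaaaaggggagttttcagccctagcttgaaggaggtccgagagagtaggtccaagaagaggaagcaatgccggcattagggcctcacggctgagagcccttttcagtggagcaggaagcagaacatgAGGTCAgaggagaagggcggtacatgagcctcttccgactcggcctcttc

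AGGTCA was found, on either strand, in 4 of the 43 carrier windows, those of Slc25a34, Slc25a39, Slc25a45 and Slc25a47, and in 14.0% of all 32851 windows of the same length. In the Slc25a34 window its first base on the printed strand lay 119 bases before the start, in that of Slc25a39 172 and in that of Slc25a45 50. The paired half-sites AGGTCANAGGTCA, which contain AGGTCA, were in 0.0335% of all windows and in no carrier window. The extended half-site TCAAGGTCA, which also contains AGGTCA and is bound by oestrogen-related receptors, was in 0.387% of all windows and again in no carrier window. CCAAT was in 20 carrier windows of 17 genes and in 33.8% of all windows. These are letter matches in short windows, and nothing about binding follows from them. Among the carriers with AGGTCA, knockdown changes were -3.44 for Slc25a34, -0.32 for Slc25a39, 0.35 for Slc25a45 and 0.13 for Slc25a47, the last of which was not called.

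Counts by role and list below stand beside shares of all genes. In knockdown 16.1% of all genes fell and 19.9% rose, and in differentiation 24.7% fell and 27.1% rose. Without the dim probe sets these shares were 24.4% and 31.5%, and 37.1% and 33.3%. Roles and lists were chosen with earlier results of these data known. Carriers of di- and tricarboxylates showed the largest median shifts by role, counting Slc25a34 and Slc25a35, whose substrates are less settled. The knockdown median is the value of Slc25a35. Of 5 measured, 4 fell in knockdown and 4 rose in differentiation, with medians of -0.92 and 2.44, and the same 4 stayed above preadipocytes after the knockdown. Slc25a1 encodes the citrate carrier, which exports citrate for fatty acid and sterol synthesis. It read 10.33, 10.38 and 10.01 in PPAR gamma siRNA adipocytes, 11.27, 11.50 and 11.12 in control siRNA adipocytes and 9.51, 9.49 and 9.42 in preadipocytes. The 3 groups were fully separate, with control siRNA adipocytes highest. Its change was -1.05 ± 0.12 in knockdown (adjusted p = 3.81e-05) and 1.82 ± 0.12 in differentiation (adjusted p = 1.55e-07). Slc25a10, the dicarboxylate carrier that exchanges malate or succinate for phosphate, had 10.25, 10.64 and 10.52 with PPAR gamma siRNA, 11.08, 10.94 and 10.94 with control siRNA and 8.69, 8.51 and 8.46 in preadipocytes. Both adipocyte groups stood far above preadipocytes and close to each other. The knockdown change was -0.52 ± 0.11 (adjusted p = 0.004), against 2.44 ± 0.11 in differentiation (adjusted p = 6.08e-09), and a second probe set gave -0.60 and 2.21.

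Slc25a34 and Slc25a35 are close relatives of each other whose transported substrate in mammals is less settled, placed here by their similarity to oxaloacetate carriers. The signal of Slc25a34 was 7.34, 6.63 and 6.80 in PPAR gamma siRNA adipocytes, 10.49, 10.39 and 10.21 in control siRNA adipocytes and 5.99, 5.80 and 5.85 in preadipocytes. Control siRNA arrays stood far above both other groups, and every PPAR gamma siRNA array still exceeded every preadipocyte array. With PPAR gamma siRNA it was 10.8-fold lower than with control siRNA (log2 change -3.44 ± 0.16, adjusted p = 2.74e-08), and control siRNA adipocytes were 22.4-fold above preadipocytes (log2 change 4.49 ± 0.16, adjusted p = 7.38e-10). Slc25a35 had 7.0, 7.46 and 7.39 with PPAR gamma siRNA, 8.31, 8.13 and 8.16 with control siRNA and 5.50, 5.11 and 5.01 in preadipocytes. Its groups were separate too, but its PPAR gamma siRNA arrays lay nearer the control siRNA arrays than the preadipocytes. The knockdown change was -0.92 ± 0.15 (adjusted p = 0.000452) and the differentiation change 3.0 ± 0.15 (adjusted p = 1.02e-08). Slc25a11, the oxoglutarate/malate carrier of the malate-aspartate shuttle, was not called, at 10.22 ± 0.13 with PPAR gamma siRNA, 10.13 ± 0.04 with control siRNA and 10.02 ± 0.03 in preadipocytes. The 95% interval of its change was -0.10 to 0.28 in knockdown and -0.08 to 0.30 in differentiation.

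The cytosolic and mitochondrial enzymes on the way of citrate to fatty acid were all called with the same signs. Of 8 measured, 8 fell in knockdown (16.1% of all genes) and 8 rose in differentiation (27.1% of all genes), with medians of -1.05 and 2.52. Pcx, which makes oxaloacetate for citrate, changed by -1.55 ± 0.10 in knockdown and 4.29 ± 0.10 in differentiation, citrate synthase (Cs) by -1.49 ± 0.08 and 2.44 ± 0.08, and Acly, which splits exported citrate, by -0.64 ± 0.10 and 2.01 ± 0.10. With PPAR gamma siRNA all 8 were above preadipocytes (19.6% of all genes), with a median difference of 1.33.

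**Figure D2:**
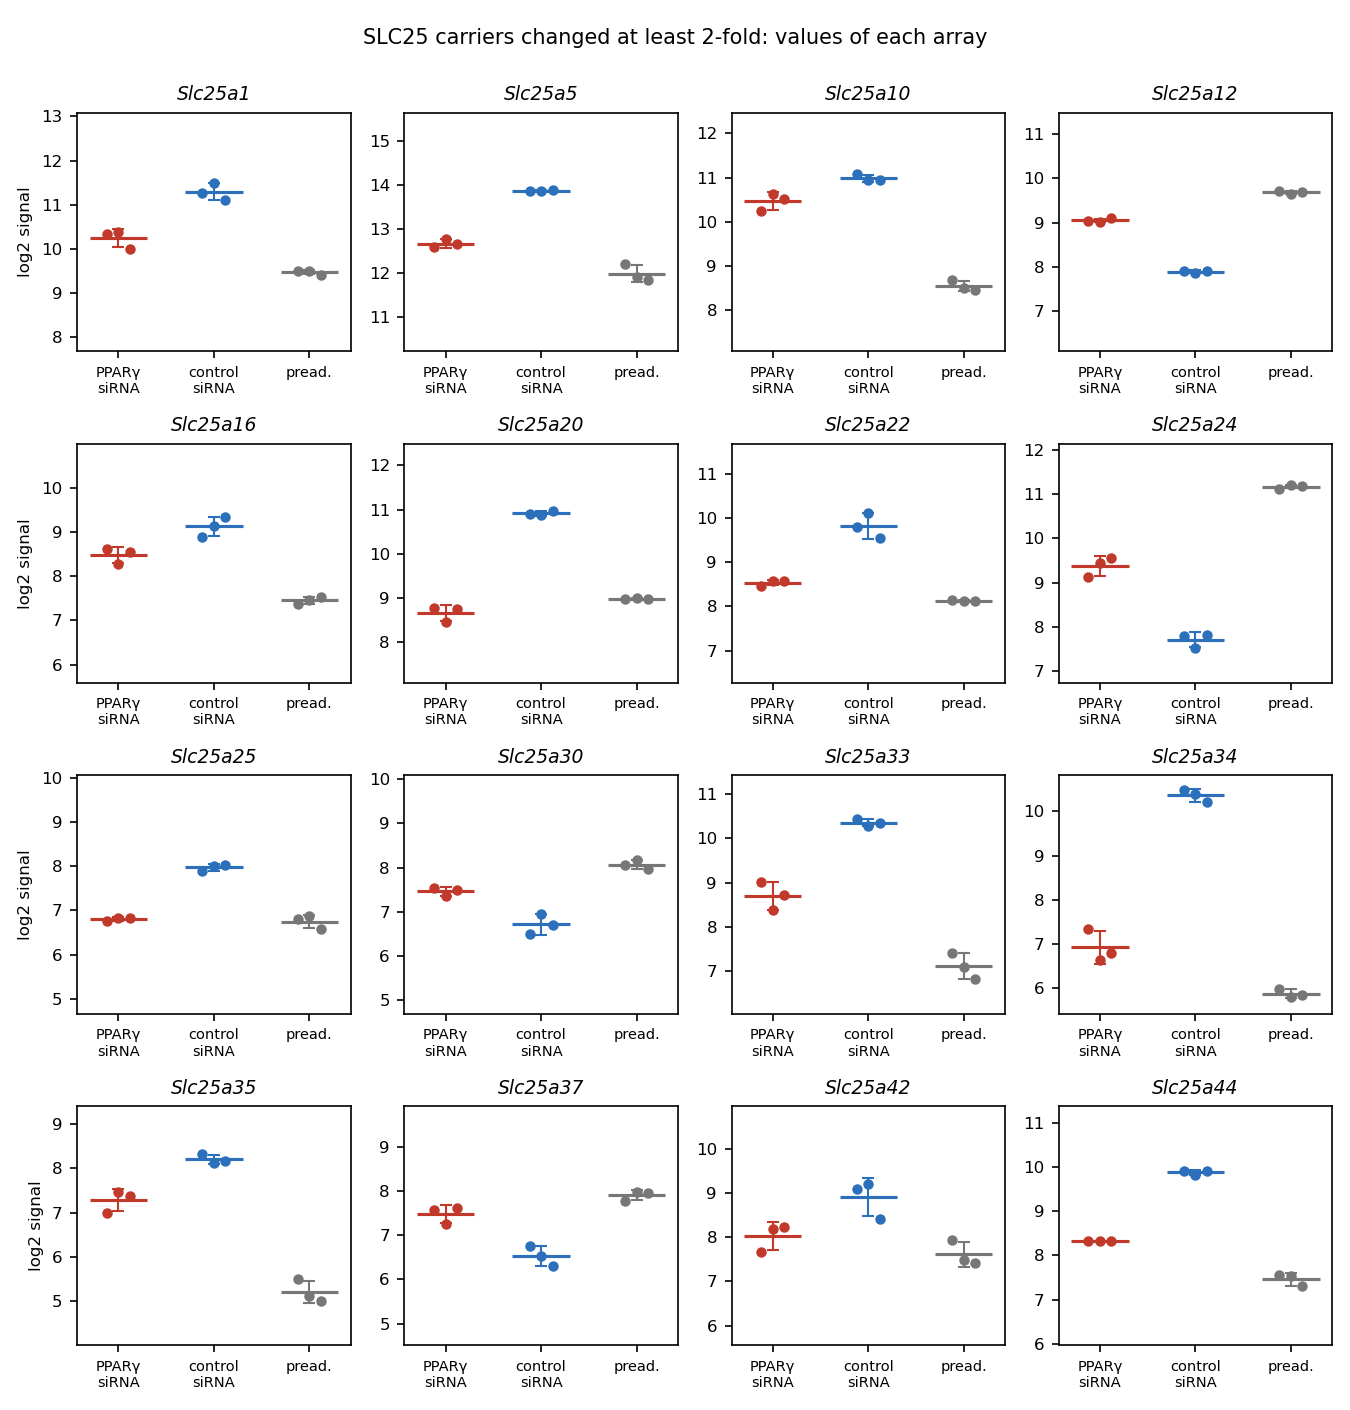
Log2 signal (y axis) on every array of the 16 carriers called with at least a 2-fold change in knockdown or differentiation, for PPAR gamma siRNA adipocytes (red), control siRNA adipocytes (blue) and preadipocytes (grey), with the mean as a bar and the SD of 3 arrays as an error bar. Control siRNA adipocytes are lowest of the 3 groups for Slc25a12, Slc25a24, Slc25a30 and Slc25a37 and highest for the other carriers shown; the vertical scale starts at a different level in each panel, and levels of different genes are not comparable.

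Among ADP/ATP and phosphate carriers, 2 of 4 fell in knockdown and 2 of 4 rose in differentiation. Slc25a5, the ADP/ATP carrier ANT2 of growing and non-muscle cells, read 12.58, 12.78 and 12.65 in PPAR gamma siRNA adipocytes, 13.86, 13.86 and 13.89 in control siRNA adipocytes and 12.22, 11.91 and 11.85 in preadipocytes. The groups did not overlap, and preadipocytes were lowest. It changed by -1.20 ± 0.11 in knockdown (adjusted p = 3.93e-06) and 1.88 ± 0.11 in differentiation (adjusted p = 3.25e-08). All 8 of its probe sets were called in both comparisons with these signs, from -1.20 to -1.99 in knockdown and from 1.75 to 2.74 in differentiation. The chosen one is of the x type, which may match more than 1 gene. Slc25a4, the ADP/ATP carrier ANT1 of heart and muscle, was not called, at 12.90 ± 0.03 with PPAR gamma siRNA, 12.90 ± 0.04 with control siRNA and 13.0 ± 0.04 in preadipocytes. The 95% intervals of its change were -0.17 to 0.16 in knockdown and -0.26 to 0.07 in differentiation. Its other probe sets were not uniform, since 1 dim probe set changed by -0.55 in knockdown and 0.40 in differentiation and another, bright one by -0.26 in differentiation.

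Slc25a3, which imports the phosphate used to make ATP, fell by 0.35 in knockdown (SE 0.08, adjusted p = 0.00486) and rose by 0.39 ± 0.08 in differentiation (adjusted p = 0.0013), and its means were 12.63 with PPAR gamma siRNA, 12.98 with control siRNA and 12.59 in preadipocytes. The differentiation call ended with the mean of all its probe sets or with the Actb difference as a covariate, where the adjusted p was up to 0.137. A dim second probe set fell by 0.39 in knockdown but was not called in differentiation. Slc25a31, the ADP/ATP carrier of germ cells, was below the array median in all groups (2.95 with PPAR gamma siRNA, 3.03 with control siRNA and 2.79 in preadipocytes) and was not called.

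The ATP-Mg/phosphate carriers adjust the adenine nucleotide content of the matrix, and all but the product of Slc25a41 carry calcium-binding EF-hands; they moved apart from one another. Slc25a24 showed 9.12, 9.45 and 9.55 in PPAR gamma siRNA adipocytes, 7.80, 7.52 and 7.81 in control siRNA adipocytes and 11.13, 11.20 and 11.18 in preadipocytes. Preadipocytes were highest, control siRNA adipocytes lowest, and no groups overlapped. It was 3.17-fold higher with PPAR gamma siRNA than with control siRNA (log2 change 1.66 ± 0.12, adjusted p = 9.06e-07), and 11-fold lower in control siRNA adipocytes than preadipocytes (log2 change -3.46 ± 0.12, adjusted p = 6.89e-10). A second probe set gave 1.79 and -3.94. With PPAR gamma siRNA it stayed 1.80 below preadipocytes on the log2 scale, the lowest value of any carrier in that comparison. Slc25a25 had the opposite pattern, with 6.76, 6.83 and 6.82 in PPAR gamma siRNA adipocytes, 7.89, 8.01 and 8.04 in control siRNA adipocytes and 6.80, 6.87 and 6.58 in preadipocytes. Control siRNA arrays stood above both other groups, which overlapped. The changes were -1.17 ± 0.09 in knockdown (adjusted p = 1.88e-06) and 1.23 ± 0.09 in differentiation (adjusted p = 4.93e-07), while 2 dimmer probe sets of the gene were not called. Slc25a23 and Slc25a41 lay below the array median in every group and were not called, although 7 of 18 alternatives run called Slc25a23 in differentiation and 9 of 18 called it against preadipocytes. Slc25a23 averaged 4.83 with PPAR gamma siRNA, 4.80 with control siRNA and 4.40 in preadipocytes, and Slc25a41 3.99 with PPAR gamma siRNA, 4.04 with control siRNA and 3.84 in preadipocytes.

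Of the 4 carriers of aspartate and glutamate, 2 rose and 1 fell in knockdown, and 1 rose and 2 fell in differentiation. Slc25a12 and Slc25a13 encode the aspartate/glutamate carriers aralar and citrin, which drive the malate-aspartate shuttle. Slc25a12 had 9.04, 9.01 and 9.10 in PPAR gamma siRNA adipocytes, 7.90, 7.85 and 7.92 in control siRNA adipocytes and 9.73, 9.65 and 9.69 in preadipocytes. Its arrays lay tightly together within groups, and the control siRNA adipocytes were lowest. The change was 1.16 ± 0.08 in knockdown (adjusted p = 3.83e-07) and -1.80 ± 0.08 in differentiation (adjusted p = 3.15e-09). Slc25a13 changed in the same directions by less, 0.39 ± 0.11 in knockdown (adjusted p = 0.0196) and -0.58 ± 0.11 in differentiation (adjusted p = 0.00105), from means of 7.83 with PPAR gamma siRNA, 7.44 with control siRNA and 8.01 in preadipocytes. Its knockdown call ended without PPAR gamma siRNA replicate 2, without control siRNA replicate 3 or without the 2 adipocyte arrays of highest Actb difference (adjusted p up to 0.0756), and its differentiation call with the Actb covariate (adjusted p = 0.0562).

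Slc25a22, a glutamate carrier, moved the other way. It read 8.47, 8.56 and 8.57 with PPAR gamma siRNA, 9.79, 10.12 and 9.55 with control siRNA and 8.14, 8.13 and 8.12 in preadipocytes. The groups were separate, with control siRNA adipocytes highest and also the most spread. Its change was -1.29 ± 0.12 in knockdown (adjusted p = 8.58e-06) and 1.69 ± 0.12 in differentiation (adjusted p = 3.44e-07). The other glutamate carrier, Slc25a18, lay below the array median throughout, at 3.69 with PPAR gamma siRNA, 3.80 with control siRNA and 3.53 in preadipocytes, and was not called. Of 6 enzymes measured of the malate-aspartate and glycerol phosphate shuttles, 5 fell and 1 rose in knockdown (16.1% and 19.9% of all genes). In differentiation 5 rose and 1 fell (27.1% and 24.7% of all genes). The exception was Got2, the mitochondrial aspartate aminotransferase, at 0.51 ± 0.11 in knockdown and -0.43 ± 0.11 in differentiation, while the cytosolic partner Got1 changed by -0.36 ± 0.11 and 0.39 ± 0.11, and Gpd1 of the glycerol phosphate shuttle by -2.27 ± 0.13 and 7.49 ± 0.13.

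In the family of carnitine and basic amino acid carriers, 2 of 7 rose and 1 fell in knockdown, and 4 rose and none fell in differentiation. Slc25a20, the carnitine/acylcarnitine carrier that brings long-chain fatty acids into the matrix, had the second largest knockdown fall of all carriers. Its signal was 8.77, 8.45 and 8.75 in PPAR gamma siRNA adipocytes, 10.90, 10.87 and 10.98 in control siRNA adipocytes and 8.98, 9.0 and 8.97 in preadipocytes. Control siRNA arrays were far above both other groups, and the PPAR gamma siRNA arrays all lay below the preadipocyte arrays. The change was -2.26 ± 0.10 in knockdown (adjusted p = 1.73e-08) and 1.93 ± 0.10 in differentiation (adjusted p = 1.37e-08). Against preadipocytes the PPAR gamma siRNA adipocytes differed by -0.33 ± 0.10 (adjusted p = 0.0245). That last call ended without PPAR gamma siRNA replicate 2 or any 1 of the preadipocyte arrays (adjusted p 0.057 to 0.0865), and a second probe set, at -0.26, was not called.

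The enzymes that work with this carrier did not all move the same way. Cpt2, the carnitine palmitoyltransferase of the inner membrane, changed by -1.61 ± 0.10 in knockdown and 3.32 ± 0.10 in differentiation, and carnitine acetyltransferase, Crat, by -2.28 ± 0.10 and 2.81 ± 0.10. Cpt1a, a carnitine palmitoyltransferase of the outer membrane, was lower in differentiation (-0.74 ± 0.11) and was not called in knockdown (0.03 ± 0.11). The list also held the carnitine transporter Slc22a5, which is not an enzyme (-0.60 in knockdown and 1.14 in differentiation), and Cpt1b, which was not measured. Of the 4 genes measured, 3 fell and none rose in knockdown, and 3 rose and 1 fell in differentiation.

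Slc25a29, a carrier of basic amino acids, and its relative Slc25a45 rose in both comparisons, in contrast to Slc25a20. Slc25a29 had 8.52 ± 0.16 with PPAR gamma siRNA, 8.03 ± 0.07 with control siRNA and 7.76 ± 0.07 in preadipocytes, with changes of 0.49 ± 0.10 in knockdown (adjusted p = 0.00243) and 0.27 ± 0.10 in differentiation (adjusted p = 0.041). The differentiation call ended without any 1 of the 6 control siRNA and preadipocyte arrays (adjusted p 0.0574 to 0.14) and with the Actb covariate (adjusted p = 0.251). Only some of its 5 probe sets were called, 2 in knockdown and 2 in differentiation, all upwards. Slc25a45 had 8.10, 8.07 and 8.04 with PPAR gamma siRNA, 7.73, 7.68 and 7.75 with control siRNA and 7.26, 7.27 and 7.34 in preadipocytes. Its groups formed 3 separate steps. The changes were 0.35 ± 0.08 in knockdown (adjusted p = 0.00427) and 0.43 ± 0.08 in differentiation (adjusted p = 0.000546). Slc25a15, the ornithine carrier of the urea cycle, rose in differentiation (0.91 ± 0.09, adjusted p = 6.68e-06) and was not called in knockdown (-0.24 ± 0.09, adjusted p = 0.0818), and a dimmer probe set of it was called in neither. With dim probe sets left out, its knockdown change was called (adjusted p = 0.0486).

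Uncalled in both comparisons were the choline carrier Slc25a48, the liver carrier Slc25a47 and Slc25a2, an ornithine carrier. Slc25a48 averaged 5.39 with PPAR gamma siRNA, 5.27 with control siRNA and 4.96 in preadipocytes, and 3 of 19 alternatives run called it in differentiation. For Slc25a47 the means were 5.44 with PPAR gamma siRNA, 5.31 with control siRNA and 5.42 in preadipocytes. Slc25a2 stayed below the array median, at 3.24 with PPAR gamma siRNA, 3.30 with control siRNA and 3.16 in preadipocytes. Slc25a47 is the genomic neighbour of Slc25a29 in the RefSeq gene table, and its knockdown difference was 0.13 ± 0.09 (not called), beside 0.49 ± 0.10 for Slc25a29. The difference between these neighbours was not tested.

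Of the carriers of other amino acids and glutathione, 3 of 4 fell in knockdown and 3 rose in differentiation. Slc25a44, a carrier of branched-chain amino acids described in brown fat, had the same deposited value, 8.33, on all 3 PPAR gamma siRNA arrays, beside 9.91, 9.82 and 9.91 in control siRNA adipocytes and 7.57, 7.53 and 7.30 in preadipocytes. Control siRNA arrays were well above both other groups, with no overlap. Identical values on all 3 arrays of a group occurred for 1.87% of all probe sets. The changes were -1.55 ± 0.09 in knockdown (adjusted p = 1.57e-07) and 2.41 ± 0.09 in differentiation (adjusted p = 1.13e-09), and another probe set without such ties gave -1.03 and 1.63. Slc25a39, which carries glutathione into mitochondria, had 13.09 ± 0.04 with PPAR gamma siRNA, 13.41 ± 0.09 with control siRNA and 12.69 ± 0.02 in preadipocytes. It changed by -0.32 ± 0.08 in knockdown (adjusted p = 0.0106) and 0.72 ± 0.08 in differentiation (adjusted p = 1.42e-05). These values come from 1 of 5 probe sets of Slc25a39, of the x type, which may match more than 1 gene. Without x and s probe sets its changes differed more from those of Slc25a40, as given with the pairs below. Slc25a40, its paralog, had 8.11 ± 0.02 with PPAR gamma siRNA, 8.40 ± 0.11 with control siRNA and 7.87 ± 0.03 in preadipocytes. Its changes were -0.30 ± 0.08 (adjusted p = 0.0192) and 0.54 ± 0.08 (adjusted p = 0.000212) in knockdown and differentiation. The knockdown call on Slc25a39 ended without the 2 adipocyte arrays of highest Actb difference (adjusted p = 0.0779), and that on Slc25a40 without those 2 arrays, with the Actb covariate or without PPAR gamma siRNA replicate 2 or control siRNA replicate 1 (adjusted p 0.0578 to 0.103). Slc25a38, a glycine carrier needed for haem synthesis, was not called, at 7.60 ± 0.04 with PPAR gamma siRNA, 7.76 ± 0.09 with control siRNA and 7.53 ± 0.12 in preadipocytes. In differentiation, 5 of 19 alternatives run did call Slc25a38.

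Nucleotide and cofactor carriers had 1 of 8 higher and 5 lower in knockdown, and 6 higher and 1 lower in differentiation. Slc25a33, the pyrimidine nucleotide carrier PNC1 that is induced by insulin and related growth factors, showed 9.0, 8.38 and 8.71 in PPAR gamma siRNA adipocytes, 10.44, 10.28 and 10.34 in control siRNA adipocytes and 7.41, 7.08 and 6.83 in preadipocytes. The groups were far apart, and PPAR gamma siRNA arrays lay midway. It was 3.16-fold lower with PPAR gamma siRNA than with control siRNA (log2 change -1.66 ± 0.17, adjusted p = 1.2e-05) and 9.52-fold higher in control siRNA adipocytes than preadipocytes (log2 change 3.25 ± 0.17, adjusted p = 1.54e-08). Slc25a36, the other pyrimidine nucleotide carrier, fell in differentiation (-0.78 ± 0.11, adjusted p = 0.00012) and was not called in knockdown (0.12 ± 0.11), with 9.41 with PPAR gamma siRNA, 9.29 with control siRNA and 10.07 in preadipocytes.

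Slc25a16 and Slc25a42 have been linked to coenzyme A supply of the matrix, the second as a transporter of coenzyme A itself. The signal of Slc25a16 was 8.62, 8.28 and 8.56 with PPAR gamma siRNA, 8.90, 9.14 and 9.34 with control siRNA and 7.38, 7.47 and 7.54 in preadipocytes. Both adipocyte groups were above preadipocytes without overlap, and control siRNA arrays were highest. The change was -0.64 ± 0.13 in knockdown (adjusted p = 0.00209) and 1.66 ± 0.13 in differentiation (adjusted p = 4.59e-07). For Slc25a42 the arrays read 7.67, 8.19 and 8.24 with PPAR gamma siRNA, 9.10, 9.21 and 8.42 with control siRNA and 7.94, 7.48 and 7.42 in preadipocytes. This was the most scattered of the carriers changed by at least 2-fold, and its PPAR gamma siRNA arrays overlapped the preadipocytes. It changed by -0.88 ± 0.22 in knockdown (adjusted p = 0.0101) and 1.30 ± 0.22 in differentiation (adjusted p = 0.000442). The knockdown call ended without control siRNA replicate 2 (adjusted p = 0.051) and the differentiation call with the Actb covariate (adjusted p = 0.0631).

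Slc25a51, the NAD carrier of mitochondria, fell in knockdown (-0.57 ± 0.08, adjusted p = 0.000174) and rose in differentiation (0.66 ± 0.08, adjusted p = 2.81e-05), with 10.96 ± 0.06 with PPAR gamma siRNA, 11.53 ± 0.02 with control siRNA and 10.87 ± 0.07 in preadipocytes. Its other probe sets were also lower in knockdown, at -1.18 and -0.79. Slc25a26, the carrier of S-adenosylmethionine, changed by -0.45 ± 0.14 in knockdown (adjusted p = 0.0339) and 0.81 ± 0.14 in differentiation (adjusted p = 0.000489). Its knockdown call ended without PPAR gamma siRNA replicate 1 or 2 or control siRNA replicate 1 or 3, without the 2 adipocyte arrays of highest Actb difference or with the Actb covariate (adjusted p 0.0521 to 0.132), and its differentiation call with the Actb covariate (adjusted p = 0.0604). Slc25a17, the peroxisomal carrier of coenzyme A and other cofactors, rose in both comparisons, by 0.33 ± 0.08 in knockdown (adjusted p = 0.00947) and 0.22 ± 0.08 in differentiation (adjusted p = 0.0454). The differentiation call ended without any 1 array other than control siRNA replicate 2 (adjusted p 0.0527 to 0.14) and with the Actb covariate (adjusted p = 0.502), and the knockdown call with the mean of both its probe sets (adjusted p = 0.104). Slc25a32, a carrier of folate, was not called, at 7.81 ± 0.10 with PPAR gamma siRNA, 7.75 ± 0.09 with control siRNA and 7.65 ± 0.11 in preadipocytes. Renewed quantile normalization did call Slc25a32 in differentiation (adjusted p = 0.0396) and against preadipocytes (adjusted p = 0.044).

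The iron carriers of mitochondria are Slc25a37 (mitoferrin 1, best known from red cell precursors) and Slc25a28 (mitoferrin 2, of most other tissues), and with all arrays only 1 of the pair was called in knockdown. Slc25a37 had 7.57, 7.25 and 7.61 in PPAR gamma siRNA adipocytes, 6.75, 6.52 and 6.30 in control siRNA adipocytes and 7.78, 7.97 and 7.96 in preadipocytes. Control siRNA arrays were lowest and preadipocyte arrays highest, without overlap. It changed by 0.95 ± 0.13 in knockdown (adjusted p = 0.000156) and -1.38 ± 0.13 in differentiation (adjusted p = 3.49e-06). Slc25a28 rose in differentiation by 0.83 ± 0.13 (adjusted p = 0.000192, but 0.0625 with the Actb covariate) and was not called in knockdown (-0.23 ± 0.13), at 8.42 with PPAR gamma siRNA, 8.65 with control siRNA and 7.83 in preadipocytes. Without control siRNA replicate 3, however, its knockdown change was called (adjusted p = 0.027). Among users of mitochondrial iron, 1 of 5 rose and 2 fell in knockdown, and 4 rose and 1 fell in differentiation. Alas1, the first enzyme of haem synthesis, changed by -1.53 ± 0.08 in knockdown and 2.81 ± 0.08 in differentiation, and Iscu, the scaffold on which iron-sulphur clusters form, by 1.33 ± 0.08 and -0.51 ± 0.08.

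The relatives of uncoupling proteins had 2 of 3 higher and none lower in knockdown and 3 of 3 lower in differentiation. Slc25a30 had 7.54, 7.35 and 7.50 in PPAR gamma siRNA adipocytes, 6.50, 6.96 and 6.70 in control siRNA adipocytes and 8.05, 8.18 and 7.97 in preadipocytes. Control siRNA adipocytes were lowest and preadipocytes highest, with no overlap. The change was 0.74 ± 0.12 in knockdown (adjusted p = 0.000465) and -1.35 ± 0.12 in differentiation (adjusted p = 1.7e-06). Slc25a14 changed by 0.72 ± 0.11 in knockdown (adjusted p = 0.000256) and -0.41 ± 0.11 in differentiation (adjusted p = 0.00827, but 0.145 after renewed quantile normalization), with means of 7.53 with PPAR gamma siRNA, 6.80 with control siRNA and 7.21 in preadipocytes. Slc25a27 fell in differentiation (-0.43 ± 0.10, adjusted p = 0.00431) and was not called in knockdown (0.24 ± 0.10). The differentiation call ended with the mean of its 4 probe sets or the Actb covariate (adjusted p up to 0.334), and a dim probe set was higher by 0.42 instead.

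Carrier family genes with other names gave mixed results. Ucp3, an uncoupling protein of muscle and brown fat, changed by -1.44 ± 0.10 in knockdown and 1.84 ± 0.10 in differentiation, from 5.57 with PPAR gamma siRNA, 7.01 with control siRNA and 5.17 in preadipocytes. Ucp1, which makes heat in brown fat and unlike Cidea of the same marker list was not called, stayed below the array median, at 3.95 ± 0.17 with PPAR gamma siRNA, 3.96 ± 0.08 with control siRNA and 3.92 ± 0.04 in preadipocytes. Of the outer membrane relatives, Mtch2 fell in knockdown (-0.84 ± 0.08) and rose in differentiation (0.92 ± 0.08), while Mtch1 was lower in differentiation (-1.18 ± 0.15) and was not called in knockdown (0.34 ± 0.15).

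Of the remaining members, Slc25a46, whose product works in the fusion, fission and cristae of mitochondria, rose in knockdown (0.42 ± 0.09, adjusted p = 0.00311) and fell in differentiation (-0.30 ± 0.09, adjusted p = 0.0159), with 9.42 with PPAR gamma siRNA, 9.0 with control siRNA and 9.30 in preadipocytes. The differentiation call ended without control siRNA replicate 2, without preadipocyte replicate 3 or with the Actb covariate (adjusted p 0.0532 to 0.0652). Slc25a53 and Slc25a54, which have no settled substrate, were not called. Of 19 alternatives run, however, 3 called Slc25a53 in knockdown, among them the Actb covariate (adjusted p down to 0.00225). That covariate alone also called Slc25a53 in differentiation (adjusted p = 0.00898). Slc25a53 averaged 6.45 with PPAR gamma siRNA, 6.08 with control siRNA and 6.23 in preadipocytes, and Slc25a54, below the array median, 3.41 with PPAR gamma siRNA, 3.59 with control siRNA and 3.38 in preadipocytes. Slc25a54 is next to Slc25a24 in the RefSeq gene table, and its knockdown difference was -0.18 ± 0.08 (not called), where Slc25a24 rose by 1.66 ± 0.12.

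Setting PPAR gamma siRNA adipocytes against preadipocytes asked how far the depleted cells lay from the undifferentiated state. This comparison also holds the electroporation and the siRNA, which cannot be told apart from differentiation. Each change in it is the sum of the gene's knockdown and differentiation changes, so it is no independent observation. Of the 44 carriers, 18 were higher and 6 lower with PPAR gamma siRNA, and 20 were not called, while 19.6% of all genes were higher and 16.9% lower. Without the dim probe sets these shares were 28.5% and 25.9% of 11595 genes. By at least 2-fold, 5 were higher and 1 lower, beside 4.29% and 5.01% of all genes. Arrays did not overlap for 21 that were higher and 7 that were lower, beside 28.8% and 21.1%. The median was 0.21, against 0.07 for all genes. The 5 were Slc25a35 (2.08 ± 0.15), Slc25a10 (1.92 ± 0.11), Slc25a33 (1.59 ± 0.17), Slc25a34 (1.05 ± 0.16) and Slc25a16 (1.02 ± 0.13), and the 1 was Slc25a24 (-1.80 ± 0.12).

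Some carriers called in knockdown and in differentiation were not called against preadipocytes. Slc25a25 differed from preadipocytes by 0.06 ± 0.09 (95% interval -0.15 to 0.26), Slc25a3 by 0.05 ± 0.08 (-0.12 to 0.22), Slc25a51 by 0.09 ± 0.08 (-0.09 to 0.26) and Slc25a13 by -0.19 ± 0.11 (-0.43 to 0.06). For Slc25a51 other probe sets were called lower than in preadipocytes, at -0.72 and -0.39. Slc25a26 (0.37 ± 0.14), Slc25a42 (0.42 ± 0.22) and Slc25a46 (0.12 ± 0.09) were not called either, with wider intervals for Slc25a26 (0.06 to 0.68) and Slc25a42 (-0.07 to 0.90). Other carriers lay between preadipocytes and control siRNA adipocytes, above preadipocytes for Slc25a5 (0.68 ± 0.11), Slc25a1 (0.77 ± 0.12), Slc25a44 (0.87 ± 0.09) and Slc25a39 (0.40 ± 0.08), and below them for Slc25a12 (-0.64 ± 0.08), Slc25a30 (-0.61 ± 0.12) and Slc25a37 (-0.43 ± 0.13). Slc25a45 (0.78 ± 0.08), Slc25a29 (0.76 ± 0.10) and Slc25a17 (0.55 ± 0.08), which had risen in both other comparisons, exceeded preadipocytes by more than control siRNA adipocytes did, and Slc25a15 (0.67 ± 0.09), Slc25a28 (0.59 ± 0.13) and Slc25a36 (-0.66 ± 0.11) kept the side they had in control siRNA adipocytes.

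Several of the smaller calls of this comparison ended when 1 array was left out, an omission that also lowers the precision. Those on Slc25a40 (0.24 ± 0.08) and Slc25a48 (0.43 ± 0.15) ended without any 1 of 7 arrays, with adjusted p of 0.0526 to 0.126 and 0.0573 to 0.152. For Slc25a40 the exceptions were control siRNA replicates 1 and 3, and for Slc25a48 PPAR gamma siRNA replicates 2 and 3. The call on Slc25a14 (0.31 ± 0.11) ended without any 1 array other than PPAR gamma siRNA replicate 2 and control siRNA replicates 1 and 3 (adjusted p 0.0549 to 0.151). Slc25a22 (0.41 ± 0.12) lost its call without PPAR gamma siRNA replicate 2 or 3 or any 1 preadipocyte array (0.0702 to 0.0774), and Slc25a37 without PPAR gamma siRNA replicate 2 or preadipocyte replicate 2 or 3 or after renewed quantile normalization (up to 0.114). With the Actb covariate Slc25a14, Slc25a22, Slc25a28, Slc25a40 and Slc25a48 were not called (adjusted p up to 0.301), nor was Slc25a15 with the mean of its probe sets (adjusted p = 0.106).

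**Figure D3:**
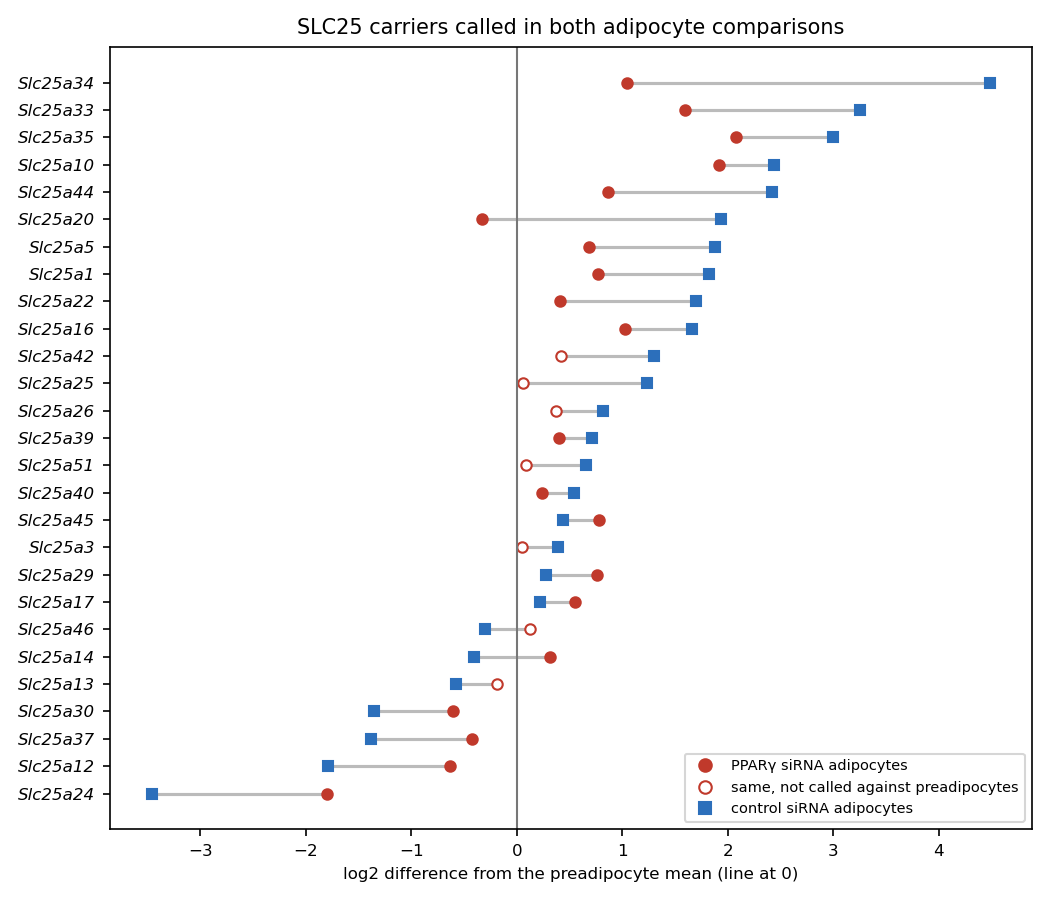
Difference from the preadipocyte mean on the log2 scale (x axis) of carriers called both in knockdown and in differentiation, for PPAR gamma siRNA adipocytes (red circles, open where not called against preadipocytes) and control siRNA adipocytes (blue squares), each a mean of 3 arrays. The grey bar between the points is the knockdown change; for Slc25a34 the points are 1.05 and 4.49, and for Slc25a20 the PPAR gamma siRNA point, at -0.33, lies beyond the preadipocyte line.

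Related carriers were compared within arrays in 11 pairs, as the log2 change of the first gene minus that of the second. Most pairs have like substrates, but Slc25a20 and Slc25a29 do not. Slc25a23, Slc25a24 and Slc25a25 were paired among themselves, so those pairs share genes. Values of the pair did not overlap between groups in 10 of 11 pairs in knockdown and in 11 of 11 in differentiation, beside 54.2% and 69.7% of all pairs that the 18193 annotated genes can form. The pairs were chosen with earlier results of these data known, and all pairs include those of dim genes. No excess of the related pairs can therefore be read from these shares. With 3 arrays against 3, the exact two-sided permutation test cannot go below p = 0.1, which each of these reached (0.105 after Benjamini-Hochberg adjustment over 22 comparisons), so none passed the threshold. The widest gap was that of Slc25a24 and Slc25a25, whose difference in change was 2.84 in knockdown and -4.69 in differentiation. The pyrimidine carriers Slc25a33 and Slc25a36 differed by -1.78 in knockdown and 4.03 in differentiation. For Slc25a20 and Slc25a29 the differences were -2.75 and 1.66. The mitoferrins Slc25a28 and Slc25a37 differed by -1.19 and 2.21 in the same comparisons, the ADP/ATP carriers Slc25a4 and Slc25a5 by 1.20 and -1.97, and the aspartate/glutamate carriers Slc25a12 and Slc25a13 by 0.77 and -1.22. Slc25a10 and Slc25a11 differed by -0.61 and 2.33, the glutamate carriers Slc25a18 and Slc25a22 by 1.18 and -1.43, Slc25a23 and Slc25a24 by -1.63 and 3.86, and Slc25a23 and Slc25a25 by 1.21 and -0.83. The pair that overlapped was Slc25a39 and Slc25a40 in knockdown, where the difference was -0.02 (exact permutation p = 0.9), but -0.291 without the x and s probe sets, which can match related transcripts, and -0.105 with the mean of all probe sets of each gene. In differentiation these paralogs differed by 0.18, the smallest difference among the 11 pairs, and by 0.51 without the x and s probe sets. Pairs with Slc25a18 or Slc25a23 hold a gene below the array median, whose small changes can be understated.

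**Figure D4:**
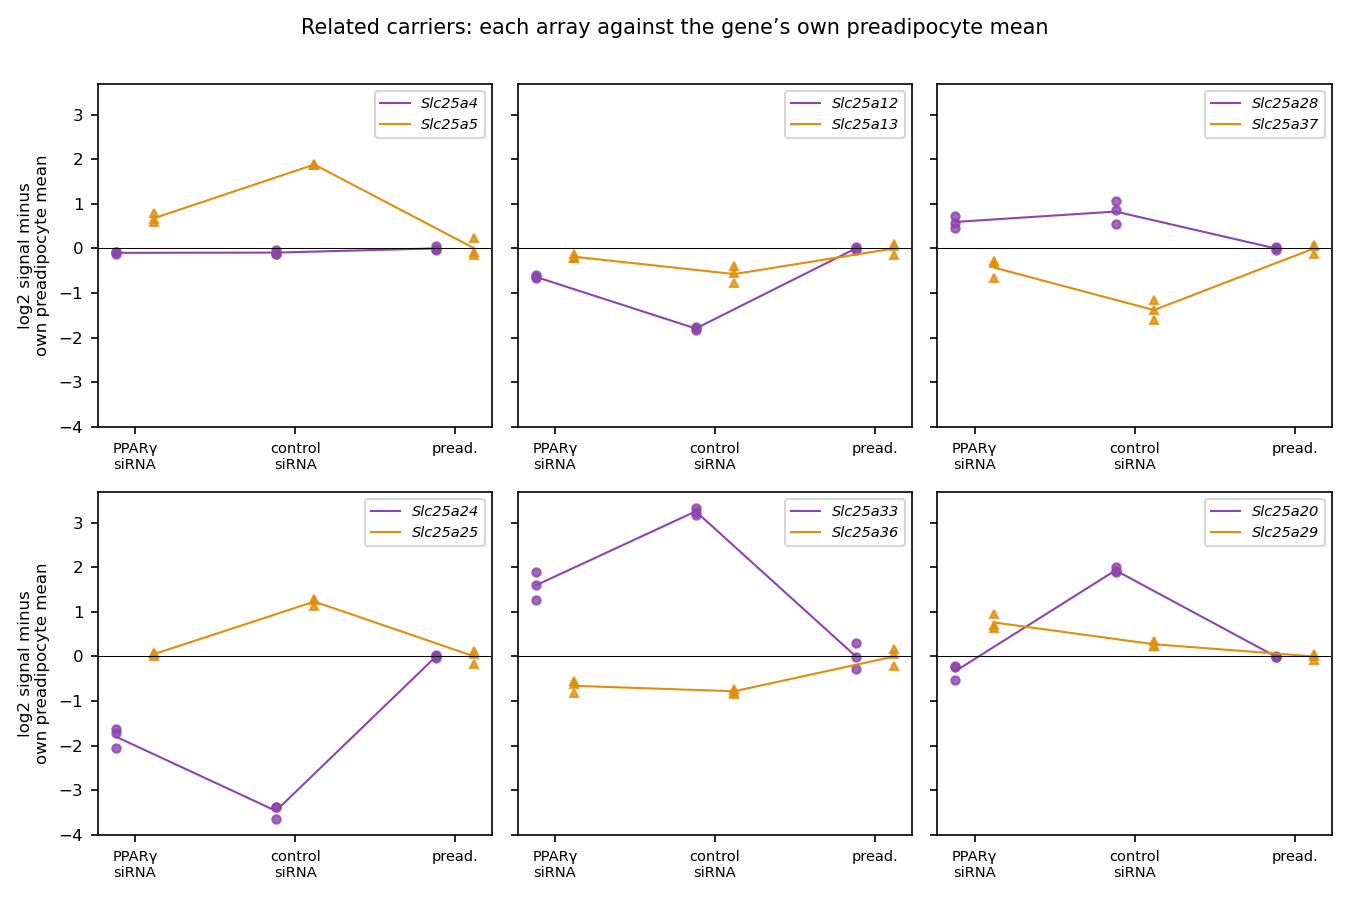
Log2 signal of each array minus the preadipocyte mean of the same gene (y axis) for 6 pairs of related carriers, in PPAR gamma siRNA adipocytes, control siRNA adipocytes and preadipocytes; circles and triangles are single arrays and lines join the group means of a gene. In the panel of Slc25a24 and Slc25a25 the control siRNA arrays of the genes lie on opposite sides of 0, with mean changes of -3.46 and 1.23, and in that of Slc25a4 and Slc25a5 the first gene lies near 0.

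Carriers reach the inner membrane through receptors and small chaperones. Of this import route, 8 of 9 measured genes fell in knockdown (16.1% of all genes) and 8 of 9 rose in differentiation (27.1% of all genes). The medians were -0.95 and 0.76. The small chaperone Timm10 changed by -1.67 ± 0.09 in knockdown and 1.88 ± 0.09 in differentiation, the inner membrane insertase Timm22 by -0.95 ± 0.09 and 1.16 ± 0.09, and the carrier receptor Tomm70a by -1.11 ± 0.09 and 0.61 ± 0.09. Tomm20, a receptor for proteins with a presequence, was not called in either (-0.02 ± 0.10 and -0.02 ± 0.10). Against preadipocytes, 1 of the 9 was higher and 1 lower with PPAR gamma siRNA (19.6% and 16.9% of all genes), with a median of 0.00. The carriers themselves had 18 of 44 higher. The difference between these lists was not tested.

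Channels and carriers outside the family gave 2 of 11 higher and 5 lower in knockdown (19.9% and 16.1% of all genes). In differentiation 7 were higher and 3 lower (27.1% and 24.7% of all genes). Mpc1, a subunit of the pyruvate carrier, changed by -1.21 ± 0.08 in knockdown and 2.13 ± 0.08 in differentiation, and the serine transporter Sfxn1 by -1.67 ± 0.09 and 2.20 ± 0.09. Its relative Sfxn3 changed by 1.71 ± 0.16 and -2.15 ± 0.16, but like Slc25a44 it had the same value, 9.21, on all 3 PPAR gamma siRNA arrays. Letm1, an ion exchanger of the inner membrane, changed by -1.92 ± 0.11 and 2.16 ± 0.11. Of 6 coactivators and transcription factors of mitochondrial biogenesis, 5 fell and none rose in knockdown (16.1% and 19.9% of all genes). In differentiation 4 rose and none fell (27.1% and 24.7% of all genes). Ppargc1b changed by -2.93 ± 0.09 in knockdown and 4.65 ± 0.09 in differentiation and the oestrogen-related receptor Esrra by -1.81 ± 0.09 and 2.19 ± 0.09, while Nrf1 was called in neither (0.24 ± 0.18 and 0.38 ± 0.18).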

How the data were processed

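The deposited values of 9 arrays were taken as probe set summaries on the log2 scale. How they were summarised and normalised between arrays is not known. Their log2 scale was read from a range of 2.41 to 14.59 and array medians of 4.82 to 4.89, since no source states it. MAS5, RMA and affy 1.16.0 are named in the submitters' processing notes, which give them no role or order; for background correction, the method is not given in the sources consulted.

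Groups followed the sample titles. One linear model over all 9 arrays with a mean per group was fitted in limma 3.58.1 (R 4.3.3) with moderated variances, without the 64 control probe sets. Tests were two-sided, with Benjamini-Hochberg adjustment over 45037 probe sets, and genes came from 34945 single-symbol probe sets. Simulated data with known changes were used to test the fit. Every member is named, with values of each array for members called with at least a 2-fold change. Members, lists, roles and pairs of related carriers were chosen with earlier results of these data known. Alternatives were other normalisations, probe set choices and variance models, a replicate block, a 2-fold minimum, the Actb difference and omission of arrays. Promoter windows, with a RefSeq table for neighbours, came from GRCm38.p6.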

Additional observations from a re-analysis of the deposited data

How the results depend on the processing

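The counts of called carriers stayed within 1.5 times their reported values under every alternative run except the 2-fold minimum. That minimum gave 2 higher and 8 lower carriers in knockdown, 12 and 4 in differentiation and 5 and 1 for PPAR gamma siRNA adipocytes against preadipocytes. Leaving out 1 array at a time gave 9 to 11 higher and 15 to 17 lower in knockdown, 20 to 22 and 8 to 9 in differentiation, and 14 to 17 and 4 to 6 against preadipocytes, with a Pparg knockdown change of -3.27 to -3.15. Arrays of the same number did not deviate together (correlations of deviations from -0.19 to 0.17), and 3 of 9 arrays correlated best with their own number. With a replicate block the counts were 10 and 16, 22 and 9, and 17 and 6, and Pparg changed by -3.20. The block ended the knockdown call on Slc25a26 and the differentiation call on Slc25a17 and, against preadipocytes, those on Slc25a40 and Slc25a48, and it made Slc25a23 called in differentiation and against preadipocytes. The difference in knockdown change between Slc25a39 and Slc25a40, -0.02 with all arrays, was 0.024 without control siRNA replicate 2 and, at the other end, -0.05 without control siRNA replicate 1; with all arrays it had an exact permutation p of 0.9. Without the 2 adipocyte arrays of highest Actb difference, 9 carriers were higher and 14 lower in knockdown and 21 and 9 in differentiation. With that difference as a covariate the counts were 11 and 15, and 17 and 7, where 18.5% and 21.3% of all genes were called in differentiation. Preadipocytes did not overlap the adipocyte groups in that difference, so in differentiation the covariate cannot be told apart from the groups.

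Calls of single carriers held under every alternative other than the 2-fold minimum for 21 of 27 in knockdown, 21 of 31 in differentiation and 16 of 24 against preadipocytes. Among those of at least 2-fold this was so for 10 of 10, 15 of 16 and 6 of 6, the exception being Slc25a42 in differentiation. Signals near the floor of the array limit what can be seen of the 6 carriers below the array median.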
